A study of Mus musculus with 3 samples.

Results

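The chromatin RNA of 9 genes that encode transcription factors of the macrophage lineage (Spi1, Cebpa, Cebpb, Cebpd, Maf, Runx1, Zeb2, Mef2c and Mitf) was examined in bone marrow-derived macrophages. The 9 genes are among 55536 annotated genes, and they carry 86 annotated transcripts. Of them, 8 were chosen by their textbook role in the lineage, with earlier results of these data known. Zeb2 was chosen by its high level in these libraries, so that its level is given as a description only. All 9 had a nonzero level in at least 1 library and passed the only filter on low values, which 24180 genes passed.

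Macrophages grown from the bone marrow of C57BL/6J mice, per the labels, received 100 ng/ml lipid A for 12 h, were kept without it for 12 h, and received 100 ng/ml again for 30 min before the chromatin fraction was taken. Lipid A is the part of bacterial lipopolysaccharide that activates Toll-like receptor 4. Ribosomal RNA-depleted total RNA-seq was done on 1 group of 3 biological replicates, which share a donor identifier, and neither sex nor age was recorded. All libraries therefore carry the same treatment, and the levels are those of restimulated cells without an untreated counterpart here. The libraries were made from 1 µg (replicate 1), 250 ng (replicate 2) and 500 ng (replicate 3) of RNA, so that input and replicate cannot be told apart.

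Macrophage identity rests on a small set of DNA-binding proteins. PU.1, the product of Spi1, and the C/EBP proteins open and bind most macrophage enhancers, RUNX1 is needed for blood cell formation and acts with PU.1, and MAF, ZEB2, MEF2C and MITF shape the programme of mature cells. RNA in the chromatin fraction is largely still attached to its template, so it contains introns and short transcripts that are rare in the cytoplasm. A level there reads transcription and RNA held on chromatin, not protein.

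The labelled cell type was checked against marker genes in the authors' gene table. All 8 macrophage markers were above 1 TPM, and their summed level was 1089.8 to 1341 TPM (transcript abundance corrected for length and scaled to a fixed sum) over the 3 libraries, with Adgre1 (F4/80) the highest at 345 TPM and Itgam (CD11b) the lowest at 36.3 TPM. Of all 24180 genes tested in the gene table, 51.1% were above 1 TPM. None of the 9 granulocyte and mast cell, 6 lymphoid, 3 dendritic, 2 erythroid and 3 stromal and endothelial markers was called above 1 TPM. Their summed levels per library were 0.28 to 1.94 TPM, 0.07 to 0.35 TPM, 0.88 to 1.31 TPM, 0 to 0.17 TPM and 0.05 to 1.31 TPM in that order, and the highest genes of these lists were Kit, Ms4a1, Clec9a, Hba-a1 and Col3a1, at 0.66, 0.127, 0.98, 0.1 and 0.45 TPM. Mpo, Elane, Ly6g, S100a8, Cd3e, Ncr1 and Hbb-bt were listed at 0 in every library of that table. In the second transcript table, summed per gene, 4 of these markers were above 1 TPM, against 57.5% of all 34376 genes tested there. Cd3d, a T cell marker, had 12.7, 15.6 and 17.9 TPM there, against 0, 0 and 0.05 TPM in the gene table. Siglech (2.01 TPM), Col1a1 (1.80 TPM) and Mpo (1.74 TPM) were the others, so the low levels of these lists hold for the gene table, and the cause of the difference between tables was not tested. Total expected counts were 12532722, 18395358 and 18237730 in replicates 1, 2 and 3, and 20988 to 21683 genes had a nonzero TPM. For a gene at 0 counts, up to 3 counts remain possible, equal to 0.242, 0.164 and 0.165 CPM (scaled counts without a length correction) in the 3 libraries, a limit that covers counting error only.

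The counts of several of these genes were divided among transcripts with different annotated starts, so the stretches just upstream of such starts are shown first. The sequences are from RefSeq (GRCm38.p6, the mm10 build). They are given 5′ to 3′ on the strand of the gene and end at the RefSeq start or at the first annotated exon base before it. Printed are those of Cebpb and Cebpa, whose levels are contrasted below. The starts of Runx1 follow, with the most upstream and the melanocyte start of Mitf. Capitals mark matches, on either strand, to the motifs TATAAA (the box bound by TBP), GAGGAA (core of PU.1 sites), TTGCNNAA (C/EBP), TGTGGT (RUNX core), TGCTGA (core of MAF sites), CACCTG (ZEB E-box), CACGTG (MiT E-box) and TGACGTCA (cAMP response element).
Cebpb (chr2:167688665-167688914, plus strand): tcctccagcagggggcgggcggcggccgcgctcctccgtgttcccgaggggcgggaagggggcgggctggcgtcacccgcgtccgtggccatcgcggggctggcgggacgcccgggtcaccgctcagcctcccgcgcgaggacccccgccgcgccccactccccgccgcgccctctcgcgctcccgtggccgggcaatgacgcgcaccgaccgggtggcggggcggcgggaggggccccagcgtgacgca
Cebpa (chr7:35119043-35119292, plus strand): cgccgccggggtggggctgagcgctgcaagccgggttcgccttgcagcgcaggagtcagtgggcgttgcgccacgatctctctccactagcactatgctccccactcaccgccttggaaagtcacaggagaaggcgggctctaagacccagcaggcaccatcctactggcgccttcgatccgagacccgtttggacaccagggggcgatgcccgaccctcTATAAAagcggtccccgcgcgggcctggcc
Runx1, distal start (chr16:92826150-92826324, minus strand): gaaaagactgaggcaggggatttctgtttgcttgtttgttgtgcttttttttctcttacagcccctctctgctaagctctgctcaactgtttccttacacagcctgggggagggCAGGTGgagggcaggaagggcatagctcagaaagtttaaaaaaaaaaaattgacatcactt
Runx1, proximal start (chr16:92697330-92697579, minus strand): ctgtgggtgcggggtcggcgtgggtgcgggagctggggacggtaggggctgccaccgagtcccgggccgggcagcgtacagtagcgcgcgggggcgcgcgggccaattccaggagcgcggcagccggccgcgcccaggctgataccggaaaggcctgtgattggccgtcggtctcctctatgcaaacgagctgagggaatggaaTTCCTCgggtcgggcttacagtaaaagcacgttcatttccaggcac
Mitf, most upstream start (chr6:97806808-97807051, plus strand): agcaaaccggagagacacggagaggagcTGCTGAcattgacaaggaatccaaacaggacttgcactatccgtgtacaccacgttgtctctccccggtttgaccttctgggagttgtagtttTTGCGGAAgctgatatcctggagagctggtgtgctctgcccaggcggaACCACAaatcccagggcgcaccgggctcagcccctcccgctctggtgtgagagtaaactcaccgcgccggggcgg
Mitf, melanocyte start (chr6:97991533-97991782, plus strand): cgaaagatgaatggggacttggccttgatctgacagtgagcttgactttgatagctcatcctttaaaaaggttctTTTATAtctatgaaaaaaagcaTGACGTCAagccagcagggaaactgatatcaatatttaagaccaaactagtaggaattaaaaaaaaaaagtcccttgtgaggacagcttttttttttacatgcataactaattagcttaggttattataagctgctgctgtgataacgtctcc
These windows differ in base composition and in the motifs they hold. The Cebpb window was 81.6% G and C, against a median of 52.4% over 32851 RefSeq promoter windows of 250 bases, and it held no match. The Cebpa window, 66.4% G and C, held a TATA box that begins 30 bases before the start, a motif present in 12.4% of all windows. The distal Runx1 window held a ZEB E-box 136 bases before the start (12.7% of all windows over the same span), and the proximal one a PU.1 core 46 bases before the start (23.3%). The upstream Mitf window held a C/EBP match, a RUNX core and a MAF core, found in 9.4%, 13.8% and 15.7% of all windows over the same span. The window of the Mitf start used in melanocytes held a cAMP response element 153 bases before the start (1.55% of all windows) and a TATA box at 175 bases. No match overlapped another. A match is a run of letters and does not show that a factor bound there. Spi1, Maf and Cebpd had no entry in the table of promoters, and the Zeb2 and Mef2c windows are not printed.

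On a per-length scale Zeb2, chosen for its level, was the highest, and the other 8 genes lay between 0.92 and 92.8 TPM on average. Zeb2 averaged 1305 ± 279 TPM (SD, n = 3, as for each mean below), Runx1 92.8 ± 16.1, Maf 60.6 ± 13.8, Spi1 53.7 ± 8.69, Mitf 49.97 ± 8.74, Mef2c 47.2 ± 5.09, Cebpb 22.1 ± 2.57, Cebpd 2.47 ± 0.472 and Cebpa 0.92 ± 0.56 TPM. In log2(TPM + 0.1), Zeb2 stood above Runx1 by 3.81 ± 0.06, Mef2c above Cebpb by 1.09 ± 0.29, Cebpb above Cebpd by 3.12 ± 0.40 and Cebpd above Cebpa by 1.45 ± 0.51, each in 3 of 3 libraries. Runx1 was above Maf by 0.62 ± 0.55, but in replicate 2 the levels were 76.58 and 76.50 TPM. By transcripts with a full coding part alone, a grouping described below, Runx1 ranked 6 among the 9 genes (13.6 ± 0.631 TPM). That measure is unlike between genes with and without introns. Maf, Spi1, Mitf and Mef2c, next to each other in this order, had overlapping ranges and differences of 0.16 ± 0.28, 0.11 ± 0.23 and 0.07 ± 0.37, smaller than their spread. With 3 libraries a two-sided exact sign-flip permutation test of such a difference cannot go below p = 0.25, so none is given. In bulk RNA, fewer cells with a transcript and less of it per cell cannot be told apart, and this holds for every level here.

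**Figure D1:**
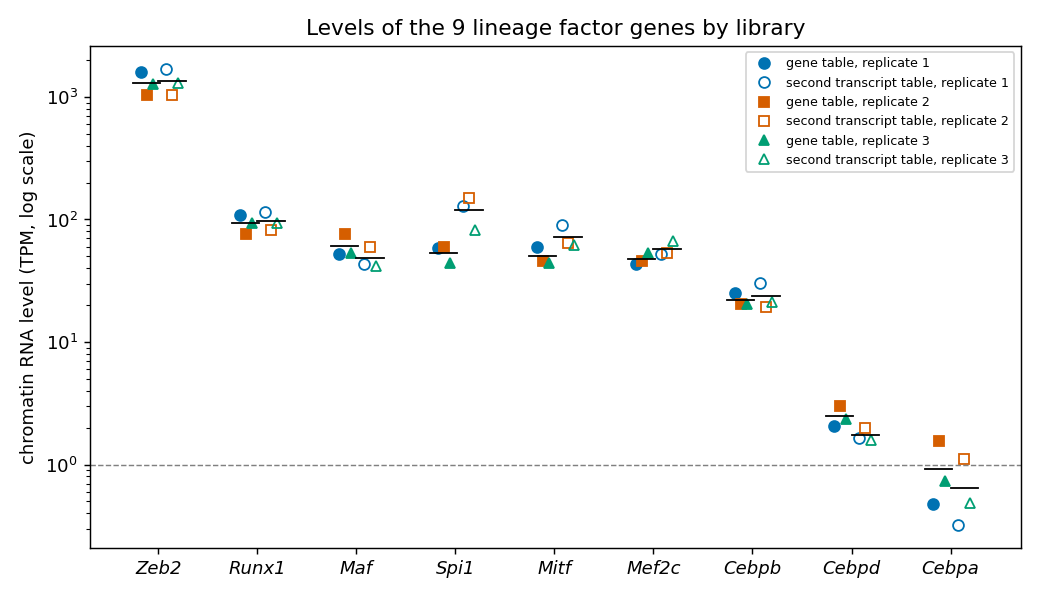
Level of each gene in TPM (log axis) in each library, from the gene table (filled) and from the second transcript table summed per gene (open), with black lines at the means and a dashed line at 1 TPM. Zeb2 lies above all others, Cebpa straddles the line, and Spi1 is the gene whose mean differs most between the tables, 53.7 against 120.2 TPM.

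Of the 8 genes other than Zeb2, 7 were above 1 TPM and none was below it (one-sided limma test on log2(TPM + 0.1), Benjamini-Hochberg adjusted over 24180 genes, threshold 0.05). The background for these counts, and for the later lists of genes in the gene table, is 51.1% of genes tested above and 31.7% below. Protein-coding genes were above in 9337 of 15120 cases. Unadjusted, again 7 were above and 0 below at p under 0.05. The 8 genes were chosen with earlier results of these data known, which these p-values do not allow for. Spi1 was 5.60 log2 units over the floor (SE 0.17, limma adjusted p = 4.04e-05). Cebpd was 1.21 units over it (SE 0.18, limma adjusted p = 0.00283), the smallest margin among the 7. Cebpa passed on neither side, at -0.25 units (SE 0.34, limma adjusted p = 1 above and 0.635 below).

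Spi1 encodes PU.1, the ETS factor that sets the myeloid fate. It had 58.25, 59.25 and 43.72 TPM in replicates 1, 2 and 3 from 458 to 797 expected counts, with replicate 3 the lowest. Among 15 other ETS genes, 13 were above 1 TPM and 2 below, against 51.1% and 31.7% of all genes tested. The list's median was 15.4 TPM, against 2.02 TPM over all genes tested. The highest was Etv3, a repressor induced in macrophages, at 420.91, 174.90 and 273.03 TPM. The lowest was Spib, the PU.1 relative of B cells and plasmacytoid dendritic cells, at 0.04, 0.09 and 0.18 TPM. Within libraries, Spi1 exceeded Spib by 8.09 ± 0.73 log2 units and Spic, which marks red pulp macrophages, by 2.60 ± 0.42, in 3 of 3 libraries each. The ratio to Spib was 7.04 in CPM and 6.64 in the second transcript table, and that to Spic was 1.52 and 3.78. Ets1, a lymphoid ETS factor, was the other member below the floor, at 0.19 ± 0.07 TPM. The protein-coding genes with the levels nearest to those of Spi1 over the 3 libraries were Fbxw2, Batf and Myo9a, at Euclidean distances of 0.128, 0.128 and 0.183 in log2(TPM + 0.1).

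The Spi1 gene (mm10 chr2:91082390-91115756, plus strand) has annotated starts in 2 groups, and both carried RNA. An enhancer upstream of Spi1, known as the upstream regulatory element, controls PU.1 levels in blood cells. Spi1-202, a noncoding transcript of 2 exons that begins 18 bases after the first annotated start and ends before the second group of starts, had 41.98, 32.79 and 24.83 TPM. Spi1-201, the transcript with the full coding sequence, begins 13706 bases after the first start and had 13.80, 21.18 and 16.87 TPM. Spi1-202 is short (613 exon bases against 2034), so it held 28.4% of the gene's expected counts and Spi1-201 held 70.1 ± 9.5%. Thus on the per-length scale the noncoding transcript was the higher in every library, and by counts the coding one. In the second transcript table Spi1 summed to 128, 150 and 82.8 TPM, 2.24 times the mean of the gene table, while Spi1-201 was at 17.4 TPM there and 17.3 TPM in the first table. The excess there lay in Spi1-203 and Spi1-204, short coding fragments with 54.9 and 13.0 TPM, against 2.01 and 1.24 TPM in the first table.

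The C/EBP members separated widely. Cebpb, which drives inflammatory and alternative activation genes, had 25.03, 20.59 and 20.58 TPM. Cebpd, an acute-phase factor that amplifies Toll-like receptor signals, had 2.05, 2.98 and 2.37 TPM. Cebpa, needed to make granulocyte and macrophage progenitors, had 0.48, 1.55 and 0.73 TPM from 11, 55 and 26 expected counts. Their ranges did not overlap, and Cebpb was above Cebpa by 4.57 ± 0.90 log2 units and above Cebpd by 3.12 ± 0.40 in 3 of 3 libraries. Without the length correction, in CPM, these ratios were 3.83 and 1.69. Cebpa was above 1 TPM only in replicate 2, and its mean without that library is 0.605 TPM. Among the other C/EBP genes, Ddit3 (CHOP, induced by endoplasmic reticulum stress) was the highest at 102.44, 50.95 and 75.76 TPM and Cebpg, a dimer partner, had 54.4 ± 10.02 TPM. Cebpe, the factor of late granulocytes, was the lowest at 0.0233 ± 0.0404 TPM and below the floor. A second Ddit3 identifier that overlaps the one used was listed at 0.

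These genes are nearly intronless, and each overlaps a gene on the other strand. Cebpb and Cebpd had all expected counts on their intronless coding transcript, and Cebpa-201 held 73.9 ± 26.1% of the Cebpa counts. Tmem189 overlaps Cebpb (mm10 chr2:167688915-167690418) by 908 bases and had 24.8 ± 2.01 TPM, close to Cebpb itself. Spidr overlaps Cebpd (mm10 chr16:15887286-15891031) by 1808 bases and had 7.24 ± 0.768 TPM. Whether counting used strand is not given in the sources used here, so reads of such pairs may be shared and the Cebpb and Cebpd levels are uncertain to that extent. The antisense gene Gm45091, which overlaps Cebpa, was listed at 0.

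Maf encodes c-MAF, a factor of resident and interleukin-10-producing macrophages. It had 52.03, 76.50 and 53.20 TPM, with replicate 2 above the others. The small MAF proteins, which lack an activation domain and pair with NFE2-related factors, were all above 1 TPM. Mafg was the highest relative at 58.8 ± 9.16 TPM, and Maff varied most, at 21.43, 6.93 and 30.56 TPM. Mafa, the beta cell factor, was below the floor and Nrl, the rod cell factor, was listed at 0 in the gene table. Nrl averaged 1.09 TPM in the second transcript table. Most Maf counts, 87.3 ± 3.25%, lay on Maf-202, a transcript of 1 exon and 6360 bases, and 12.7% on the spliced Maf-201, which differ little in coding length (1113 and 1143 bases). The antisense gene Gm15655 overlaps Maf (mm10 chr8:115682942-115707794, minus strand) and had 3.24, 26.33 and 19.89 TPM.

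Runx1, which encodes the DNA-binding subunit of core-binding factor, had 108.79, 76.58 and 92.90 TPM. Its partner Cbfb was at 22.5 ± 0.904 TPM. Runx2, the bone factor, had 3.38 ± 1.12 TPM, and Runx1 exceeded it by 4.77 ± 0.23 log2 units in 3 of 3 libraries. Runx3, best known in T cells, had 0.10, 0.11 and 1.40 TPM and passed on neither side of the floor.

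Runx1 (mm10 chr16:92601466-92826149, minus strand) has a distal and a proximal promoter, and expected counts were assigned almost equally to the transcripts annotated from each. Transcripts starting at the distal promoter held 49.3 ± 2.66% of the expected counts and those starting at the proximal one, 128821 to 130654 bases downstream, held 50.7 ± 2.66%. In TPM the distal group had 61.2, 38.6 and 44.4 and the proximal group 47.6, 37.9 and 48.5, so their ranges overlapped. Within each group most counts lay on a short transcript without a coding part. Runx1-207, which ends 10721 bases after the distal start, had 52.09, 34.11 and 37.96 TPM. Runx1-206, which retains an intron and starts at the proximal promoter, had 30.28, 18.80 and 27.36 TPM. The transcripts with a full coding part, Runx1-201 (distal) and Runx1-203 (proximal), summed to 13.5, 13.0 and 14.2 TPM, a far smaller spread than that of the gene. Reads from an unspliced precursor and from a short transcript that contains the same intron cannot be told apart. Runx1-206 held 36.1% of the counts, and its retained intron lies downstream of both promoters. The split of counts therefore does not measure how much RNA began at each promoter.

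**Figure D2:**
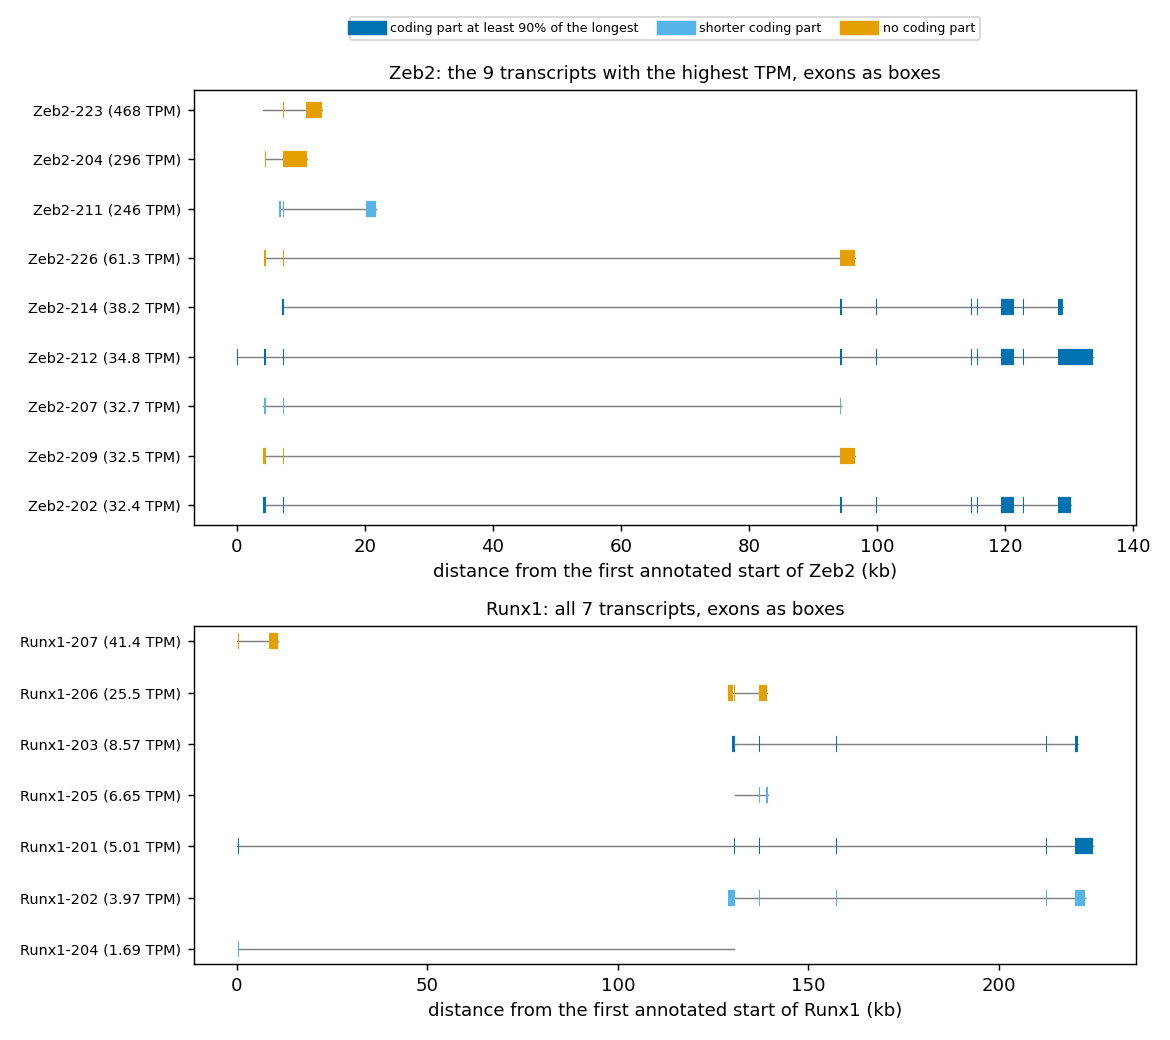
Annotated transcripts of Zeb2 (the 9 with the highest mean TPM) and Runx1 (all 7), drawn to scale by distance from the gene's first annotated start in kb, with exons as boxes coloured by coding part and mean TPM in brackets. The transcripts with most TPM, such as Zeb2-223 at 468 TPM and Runx1-207 at 41.4 TPM, end within the first part of the gene. Reads of an unspliced precursor may be assigned to them.

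Zeb2 encodes a zinc-finger and homeodomain repressor that preserves macrophage identity. It had 1596.21, 1040.56 and 1278.49 TPM in replicates 1, 2 and 3, from 46367.11 to 53577.47 expected counts, and ranked 5 among protein-coding genes. Its relative Zeb1 had 30.15, 15.63 and 14.78 TPM, and Zeb2 exceeded it by 6.06 ± 0.35 log2 units in 3 of 3 libraries. The co-repressors Ctbp1 and Ctbp2 had 19.8 ± 5.76 and 22.8 ± 4.78 TPM. The protein-coding genes with the nearest levels were Fyb, Rsrp1 and Ikbke, at distances of 0.344, 0.378 and 0.493.

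Most expected counts of Zeb2 (mm10 chr2:44983632-45117395, minus strand) were assigned to transcripts that end near the 5′ end of the gene. Of its 29 transcripts, the 8 that end within 25 kb of the first start, a window set after the values were seen in a gene of 134 kb, held 77.7%, 70.8% and 74.3% of the expected counts. Zeb2-223, a noncoding transcript with 2453 of its 2608 exon bases outside the exons of full coding transcripts, had 550.61, 378.81 and 473.81 TPM. Zeb2-204, which retains an intron, had 357.47, 230.77 and 299.69 TPM. Zeb2-211, with a coding part of 114 bases against 3780 in the longest, had 337.39, 175.30 and 224.45 TPM. The 6 transcripts with a full coding part together had 120, 103 and 114 TPM, 18.4 ± 2.46% of the counts. Their mean was 112 ± 8.69 TPM, and 87.5 ± 11.2 TPM in the second transcript table. As for Runx1, reads of an unspliced precursor may be assigned to the short transcripts whose exons cover intron sequence. The share near the 5′ end therefore depends on which introns hold annotated exons.

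Zeb2 has an antisense gene near its 5′ end. Zeb2os (mm10 chr2:45110707-45114087, plus strand) overlaps 3381 bases of Zeb2 and lies over most of the main group of its starts. The longest exons of Zeb2-223, Zeb2-204 and Zeb2-211, which begin 10905, 7238 and 20198 bases after the first start, lie downstream of it. In human cells the antisense transcript of ZEB2 is known to affect splicing of a 5′ intron. Zeb2os had 129.73, 76.77 and 100.70 TPM in the gene table. It was much higher in the second transcript table, at 1271, 539.6 and 925 TPM, while Zeb2 itself was 1343 ± 330.3 TPM there. Gm27761, a small RNA gene inside Zeb2os, had 101.90 TPM in replicate 1 and was listed at 0 in the others. The split of reads between these entries and Zeb2 is uncertain for the reason given for Cebpb.

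Mef2c encodes a MADS-box factor that balances monocyte against granulocyte fate and serves microglia. It had 43.26, 45.41 and 52.95 TPM, and replicate 3 was the highest. Mef2a was higher in all 3 libraries (96.33, 74.29 and 84.72 TPM), and the log2 ratio of Mef2c to Mef2a was -0.85 ± 0.27 (-1.66 in CPM and -0.55 in the second transcript table). Mef2d had 35.8 ± 6.81 TPM and Mef2b was the lowest, at 0.05 ± 0.0458 TPM. All 4 class IIa histone deacetylases that bind MEF2 proteins were above 1 TPM, with Hdac5 the highest of them at 25.7 ± 8.20 TPM.

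Mef2c (mm10 chr13:83504034-83667080, plus strand) has 31 annotated transcripts, and the counts were divided among groups with different annotated starts. The 11 that begin 19439 to 20886 bases after the first start held 56.7 ± 4.43% of the expected counts, and the 10 that begin 68314 to 71643 bases after it held 41.5 ± 3.9%. The most upstream starts, 6 transcripts, held 1.59%, all of it in replicate 3. The leading transcript by counts was Mef2c-209, an unspliced stretch of 4553 bases annotated as a retained intron, with 35.7 ± 6.18%. As for Runx1, reads of a precursor that began further upstream may be assigned to it, or to Mef2c-210, which held 19.95%. These shares therefore do not measure how much RNA began at each start. The 8 transcripts with a full coding part had 5.18, 4.64 and 7.85 TPM in all, with a mean of 5.89 ± 1.72 TPM. By this measure Mef2c was lower than Cebpb (22.1 ± 2.57 TPM), a gene below it in the order of whole-gene levels. The 2 values are unlike, because all Cebpb counts fall on its 1 intronless coding transcript by construction.

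Mitf encodes a basic helix-loop-helix zipper factor of melanocytes, mast cells, osteoclasts and macrophages that acts on lysosomal genes with its relatives. It had 60.00, 45.89 and 44.01 TPM. Tfec, a relative expressed mainly in macrophages, had 77.60, 39.12 and 64.23 TPM and was above Mitf in 2 of 3 libraries. The log2 ratio of Mitf to Tfec was -0.23 ± 0.41, smaller than its spread, and it changed sign to 0.32 in the second transcript table. Tfe3 and Tfeb were at 49.6 ± 6.30 and 19.0 ± 2.34 TPM, all of the family thus being above 1 TPM.

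Mitf (mm10 chr6:97807052-98021349, plus strand) has several tissue-dependent first exons. Transcripts that begin at the most upstream start held 96.0 ± 0.462% of the expected counts, led by Mitf-202 with 67.0 ± 2.66% and the intron-retaining Mitf-206 with 24.4%. Transcripts that begin at the melanocyte start, 184740 bases or more downstream, held 0.92 ± 0.394%. In the second transcript table these shares were 69.5 ± 1.1% and 17.3 ± 0.557%, and a further 10.1% lay on Mitf-203, listed at 0 in the first. Transcripts annotated from the most upstream start thus led in both tables, by different margins. The last exon of Mitf-202 runs to 214297 bases after the first start, and no other transcript passes 211655 bases. Reads beyond that point are assigned to Mitf-202 whichever start the RNA used. The retained stretch of Mitf-206 also lies downstream of the Mitf-203 start. As for Runx1, these shares therefore do not measure how much RNA began at each start. A processed pseudogene, Gm15531, lies inside Mitf on the other strand and had 38.8 ± 5.67 TPM.

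Transcripts with a full coding part held the smaller part of the Runx1, Zeb2 and Mef2c counts. The share of expected counts on transcripts whose coding part reached at least 90% of the longest was 17.5 ± 2.38% for Runx1, 18.4 ± 2.46% for Zeb2 and 27.4 ± 4.45% for Mef2c. It was 70.1% for Spi1, 74.7 ± 3.93% for Mitf and 100% for Cebpd. For Maf and Cebpb it is 100% by construction, since their 2 and 1 annotated transcripts all carry a full coding part. Over 8919 protein-coding genes with a mean of at least 50 expected counts, the median was 68.6%, and Runx1, Zeb2 and Mef2c lay at percentiles 11.5, 12.1 and 17.7. This grouping of transcripts was made after their values were seen. Any coding part under 90% of the longest counts as shorter, whether or not it is complete. Runx1-202 (1164 against 1398 bases) and Mitf-201 (1260 against 1581 bases) are examples. Retained-intron transcripts held 58.4 ± 4% of the counts of Mef2c, 36.1 ± 3.05% for Runx1, 36.0 ± 0.741% for Zeb2 and 24.4 ± 3.6% for Mitf, against a median of 28.1% over 5852 genes with such a transcript. The other 5 genes have none annotated. As a share of TPM the order differed, with 53.0% for Mitf, 40.2% for Mef2c, 30.01% for Zeb2 and 27.3% for Runx1.

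**Figure D3:**
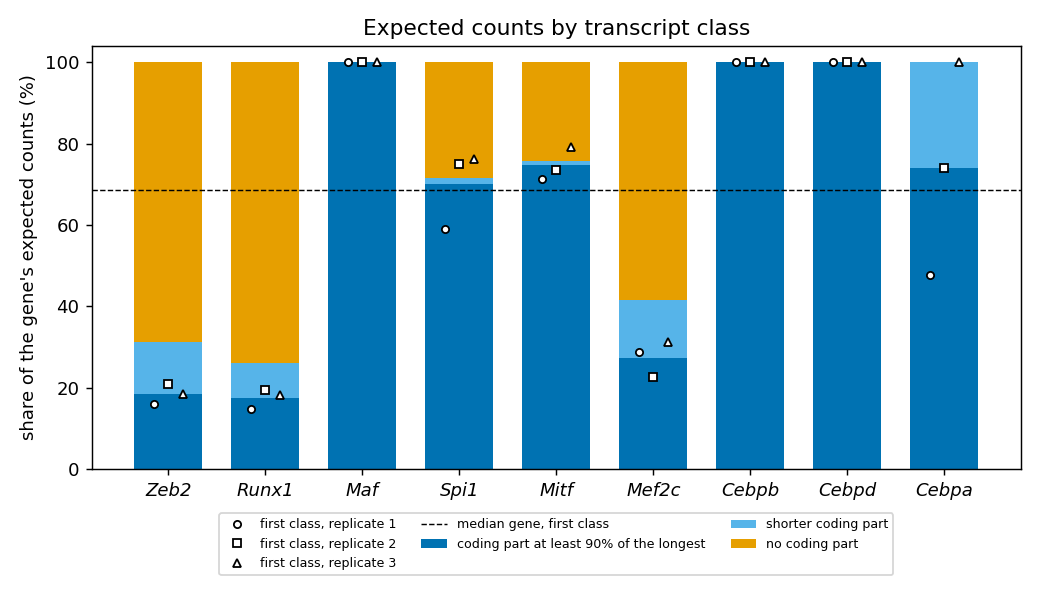
Mean share of each gene's expected counts (%, 3 libraries) on transcripts with a full, a shorter or no coding part, with markers for the first class in each library and a dashed line at the 68.6% of the median protein-coding gene. Runx1, Zeb2 and Mef2c lie under the line in every library, and Cebpa ranges from 47.7% to 100%.

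**Figure D4:**
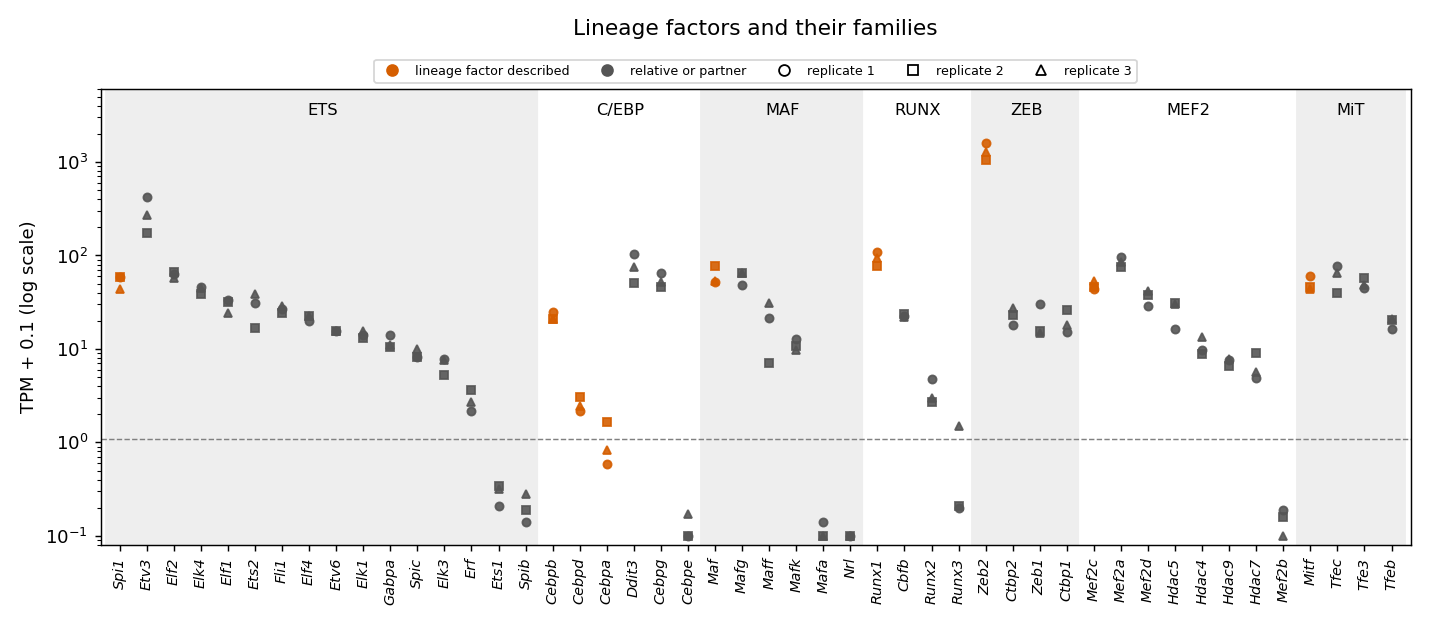
TPM + 0.1 (log axis) in each library for the described factors (orange) and their relatives and partners (grey), grouped by family, with a dashed line at the 1 TPM floor. Most relatives lie above the line, and Ets1, Spib, Cebpe, Mafa, Nrl and Mef2b lie below it in every library of the gene table.

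Over the 7 family lists together, 32 of 39 relatives and partners were above 1 TPM, 5 below, 1 on neither side and 1 not tested. Their median was 19.6 TPM. Over all genes tested, 51.1% were above 1 TPM and 31.7% below, the background also for the next counts. Other factors known for macrophages were above 1 TPM in 8 of 10 cases. Nfe2l2, the oxidative stress regulator NRF2, was the highest at 388.02, 177.98 and 409.37 TPM, and Irf4 and Klf4, both linked to alternative activation, were below it, at 0.237 and 0.413 TPM on average. Of 20 textbook targets of the 9 factors, 16 were above and 2 below. Gpnmb, a MITF target, was the highest at 1054 ± 226 TPM and Cdh1, which ZEB2 represses, the lowest at 0.00667 TPM. Acp5, an osteoclast phosphatase, was the other gene below, at 0.577 TPM, but had 3.78, 2.38 and 3.48 TPM in the second transcript table and was above the floor there. Il6 and Ctsk passed on neither side, Il6 with 3.25, 0.61 and 4.55 TPM and Ctsk with 1.22, 0.35 and 0.69 TPM.

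Factors that define other lineages were mostly low in the gene table. Of 31 such genes, 6 were above 1 TPM and 15 below, against 51.1% and 31.7% of all genes tested. Of the rest, 3 were on neither side and 7 were not tested because they were listed at 0 in every library. The median of the 31 was 0.0233 TPM. The highest was Tcf4, the factor of plasmacytoid dendritic cells, at 137.57, 102.20 and 102.48 TPM. The other 5 were Batf3, Tal1, Meis1, Myb and Foxp3, at means of 2.02 to 4.31 TPM. Among erythroid and stem cell factors, Hoxa9 was the lowest, listed at 0, and Gata1 had 0.0167 TPM. None of the 7 stromal, endothelial and epithelial factors was above the floor. Of the 31, 11 were above the floor and 13 below it in the second transcript table, against 57.5% and 25.9% of all genes tested. The 5 genes above it in that table and not in the gene table were Grhl2, an epithelial factor, with 3.72, 3.74 and 3.20 TPM, Lef1, Ebf1, Nfe2 and Zbtb46, at means of 1.90 to 3.15 TPM. Foxp3 was at 6.48 TPM there, against 2.02 TPM in the gene table.

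In 8 of the 9 genes the libraries stayed within the 5th to 95th percentile of the library differences of all genes kept, and Cebpa did not. By construction this band leaves out the lowest 5% and the highest 5% of genes in each library. The share of all genes outside it in at least 1 library was not computed, so the place of Cebpa is a description only. Differences of a library from the mean of the other libraries, in TMM-scaled log2 CPM, were 0.47, -0.48 and 0.01 for Zeb2 and 0.37, -0.44 and 0.07 for Runx1. For Maf they ran the other way, at -0.32, 0.57 and -0.25. Over 14140 genes the 5th and 95th percentiles were -0.68 and 0.77 in replicate 1, -0.85 and 0.76 in replicate 2, and -0.65 and 0.60 in replicate 3. Cebpa left that range in replicates 1 (-1.14) and 2 (1.25), and its biological coefficient of variation of 0.37 was at the 97.6th percentile. The others had coefficients of 0.169 (Spi1) to 0.219 (Zeb2), at percentiles 12.2 to 58.3, around the median of 0.21. Replicate 1, with the largest RNA input and the fewest counts, was the highest for Zeb2, Runx1, Mitf and Cebpb, and replicate 2, with the smallest input, was the highest for Spi1, Maf, Cebpd and Cebpa. The part of input or depth in this was not tested.

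**Figure D5:**
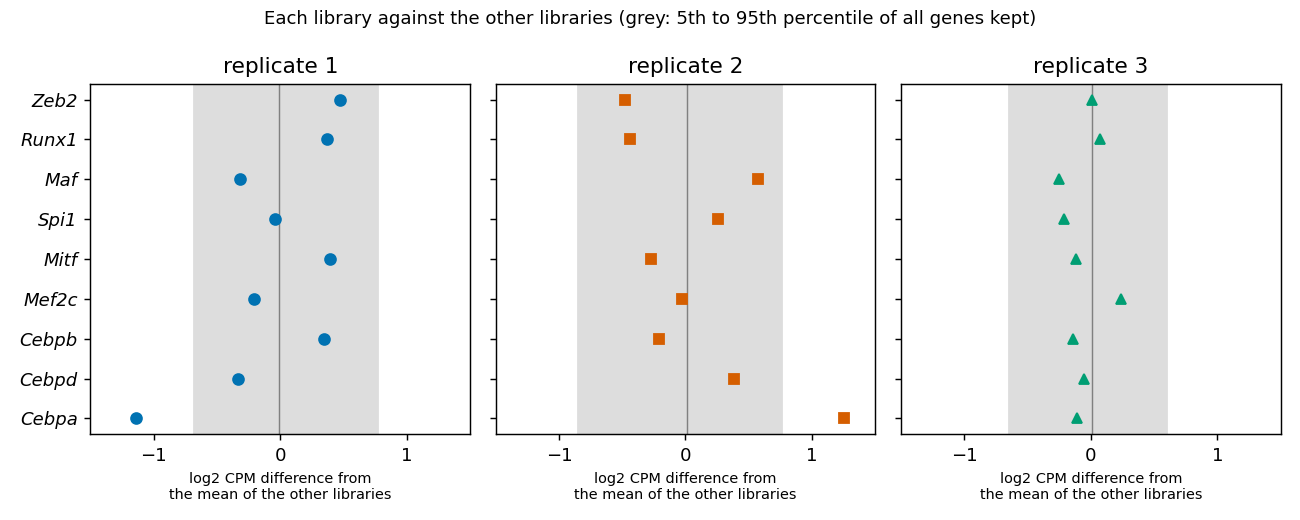
Difference of each library from the mean of the others in log2 CPM for the 9 genes, with the 5th to 95th percentile over 14140 genes in grey and their median as a line. All points except those of Cebpa in replicates 1 and 2 lie inside the grey band.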

How the data were processed

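In each library, 3 tables were analysed. The authors deposited a gene table and a transcript table with expected counts (not whole numbers) and TPM, per the file headers, laid out as RSEM writes them, and a second transcript table with estimated counts and TPM, laid out as kallisto writes them. The text file deposited beside each sample names assembly mm10 and annotation M21, and gives transcriptome alignments as the source of the RSEM-style files and the reads as that of the kallisto-style one. The sources used here give no aligner, version or use of strand. Effective lengths, per the file headers, are the authors' lengths corrected for fragment length.

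Spike-in, phiX and numbered rows that name no gene (1.045%, 0.425% and 0.401% of expected counts in replicates 1, 2 and 3) were left out. Libraries differed beyond sampling noise (chi-square per degree of freedom 40.2 to 76.0), so none was a copy of another. As 1 donor identifier is shared, p-values measure the spread between these samples, which may be technical. Levels as log2(TPM + 0.1) of all genes with a nonzero TPM were fitted with limma (3.58.1, intercept only) and tested one-sided against the floor of 1 TPM, with a threshold of 0.05 on the adjusted p. Differences on this scale are understated near 0.1 TPM. The fit was tested on simulated data. CPM were computed from expected counts, rounded for TMM scaling and dispersion in edgeR (4.0.16) after filterByExpr. DESeq2 (1.42.0) size factors served as an alternative. Start sites more than 2000 bases apart were put in separate groups.

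The 9 members and all lists were chosen with earlier results of these data known. Named genes are the members, the highest and lowest of each list by mean TPM, those on neither side of the floor, the paralogs in ratios, and the nearest 3 profiles to Spi1 and Zeb2. Others (Cebpg, Ets1, overlapping genes and the like) were named after their values were seen. Some planned results are not reported here. Where 2 identifiers share a symbol, the one with the higher mean was used. Motifs were searched in RefSeq promoter windows, in which 6 of the 9 genes had an entry. R 4.3.3, python 3.11.15, numpy 2.4.6, pandas 2.3.3 and matplotlib 3.10.9 were used.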

Additional observations from a re-analysis of the deposited data

How the results depend on the processing

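The count of 7 genes above 1 TPM, Zeb2 aside, was 7 under other pseudocounts, a filter on mean TPM and limma's trend. It was also 7 in the second transcript table, without any 1 replicate (7 to 7), and in CPM with a floor of 1 CPM. Of all genes tested, 50.3% to 62.1% were above in these settings. At a floor of 5 TPM the count was 6, with 2 genes below (Cebpa and Cebpd, Cebpd at -1.01 log2 units). Of all genes tested, 29.2% were above and 56.8% below that floor. In all other settings 0 of the 8 were below, against 12.8% to 37.8% of all genes tested. The median level of the 9 genes was 49.97 TPM, 57.0 TPM in the second transcript table, 158 TPM when scaled to protein-coding genes only (which enlarges every TPM by construction), and 49.2 to 52.9 TPM without 1 replicate. The median retained-intron share over 4 genes was 36.0%, and 34.0% in the second transcript table. The cause of these table differences was not tested. The log2 ratio of Mitf to Tfec turned to 0.32 in the second transcript table and to 0.59 in CPM. Of 8 ratios, 7 had 1 sign in all libraries, and 8 did in CPM or without replicate 2. For 8 of 9 genes the leading transcript was unchanged in the second transcript table, with Zeb2-204 in place of Zeb2-223. For Cebpb this holds by construction, as it has 1 annotated transcript, and Cebpa, Cebpd and Maf have only 2 each. No share over all genes is given for this count, so it is a description only. By level Spi1 moved from rank 4 to rank 2 and Maf from rank 3 to rank 6 in the second transcript table. Of the 9 genes, Cebpa was the 1 outside the 5th to 95th percentile under every scaling run, a description only, as all runs use the same counts. Cebpa rests on 11 to 55 counts, so its level is the least precise. No paired analysis was possible because there is 1 group.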
